A study of Homo sapiens with 6 samples.

Results

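The 8 genes described here make, break down or bind hyaluronan. They are the synthases HAS2 and HAS3, the breakdown genes CEMIP, CEMIP2, HYAL1, HYAL2 and HYAL3, and the receptor CD44. They were chosen by name as a pathway, with earlier results of these data known, as were the gene lists used below. CEMIP2 was also selected on a measured value. Its signal with hsa-miR-214-3p less that of the scrambled control was among the largest rises on these arrays. A probe was taken for a gene when the transcript that the scanner output names for it is a RefSeq transcript of that gene, which gave 13 probes for the 8 genes, of 21743 genes on the array. Of these probes, 9 exceeded background clearly (the scanner's own mark) on both arrays of 1 group or more, and were kept. They left 7 of the 8 genes among the 11974 genes tested, and HYAL1 was the gene without a kept probe.

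The study asked which genes change when a miRNA is raised in MDA-MB-231, a human breast cancer cell line with mesenchymal features. Cells received a precursor of hsa-miR-205-5p, one of hsa-miR-214-3p, or a scrambled precursor as control (SCR), each at 30 nM, and RNA was taken after 72 h, with 2 arrays for each of the 3 groups. Each RNA was read in 1 dye on a separate Agilent whole-genome expression array. All 6 arrays lay on 1 slide, each group in its own pair of adjacent places, so the place on the slide and the group cannot be told apart.

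Signals are given as normalized log2 signal, where 0 is the 75th percentile of the array. That percentile lay between 35.1 and 58.0 in processed signal. Between 35.4% and 42.2% of the 58717 spots on an array were well above background and 0 were saturated. A gene was called at a Benjamini-Hochberg adjusted p under 0.05 in limma with a change of at least 2-fold, and the number of arrays limits the precision. SCR replicate 2 lay nearer to the hsa-miR-214-3p arrays (root mean square difference 0.58 and 0.63 over all kept probes) than to SCR replicate 1 (0.67), so values without each SCR array are given where they matter.

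Hyaluronan is a long, unbranched sugar polymer of the extracellular matrix. Synthases in the plasma membrane extrude it, hyaluronidases cut it outside the cell and in lysosomes, and CD44 is its best known receptor at the cell surface. In breast cancer cells, hyaluronan and CD44 have long been studied for their part in adhesion and movement.

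The sequences of both transfected miRNAs are shown because they set the groups apart. They are the mature forms in RefSeq (GRCh38.p14), both from chromosome 1. hsa-miR-205-5p lies in the miRNA gene MIR205 at chr1:209432166-209432187 on the plus strand, and hsa-miR-214-3p in the miRNA gene MIR214 at chr1:172138816-172138837 on the minus strand. Sequences run 5′ to 3′, and capitals mark the seed, bases 2 to 8.
hsa-miR-205-5p: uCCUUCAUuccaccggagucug
hsa-miR-214-3p: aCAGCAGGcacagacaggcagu
The seeds hold the same base at 1 of their 7 positions. Matches of these seeds in the transcripts of the 8 genes were not analysed here.

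CEMIP and CEMIP2, which are related in sequence, held the largest differences from SCR. CEMIP rose with hsa-miR-205-5p and was also higher there than with hsa-miR-214-3p, while CEMIP2 had more signal with either precursor than in SCR. HYAL2 and CD44 gave bright signals on every array and stayed within 2-fold in all 3 comparisons. HAS2, HAS3 and HYAL1 gave signals close to background.

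With hsa-miR-205-5p against SCR, 2 of the 7 genes with a kept probe, CEMIP and CEMIP2, were past the thresholds upward and 0 downward. Of all 11974 genes tested, 4.79% were called higher and 7.98% lower. Without CEMIP2, whose choice used the same SCR arrays, 1 of 6 genes was higher. At unadjusted p, limma and the methods' t-test both placed 0 of the 7 downward as well, while limma placed 1201 of all 11974 genes there. With hsa-miR-214-3p against SCR, the comparison that chose CEMIP2, 1 of 7 genes (CEMIP2) was past the thresholds upward and 0 downward, beside 1.09% and 2.02% of all genes, and nothing is read from that count. At unadjusted p, limma placed 1 of the 7 downward, HAS2, beside 495 of all 11974 genes. Nothing is read from HAS2 since it was kept through SCR alone, and the methods' t-test placed 0 of the 7 there. With hsa-miR-205-5p against hsa-miR-214-3p, CEMIP was called higher (1 of the 6 genes other than CEMIP2) and 0 were lower, while 9.19% of all genes were called higher and 11.3% lower. In this comparison too, 0 were lower at unadjusted p in limma and in the methods' t-test, while limma had 1532 of all 11974 genes lower. With so few genes, the counts say little about the 8 genes as a group. The median difference over the 7 genes was 0.12, 0.03 and 0.09 in the same order, and over all genes tested it was 0.08, −0.01 and 0.12.

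**Figure D1:**
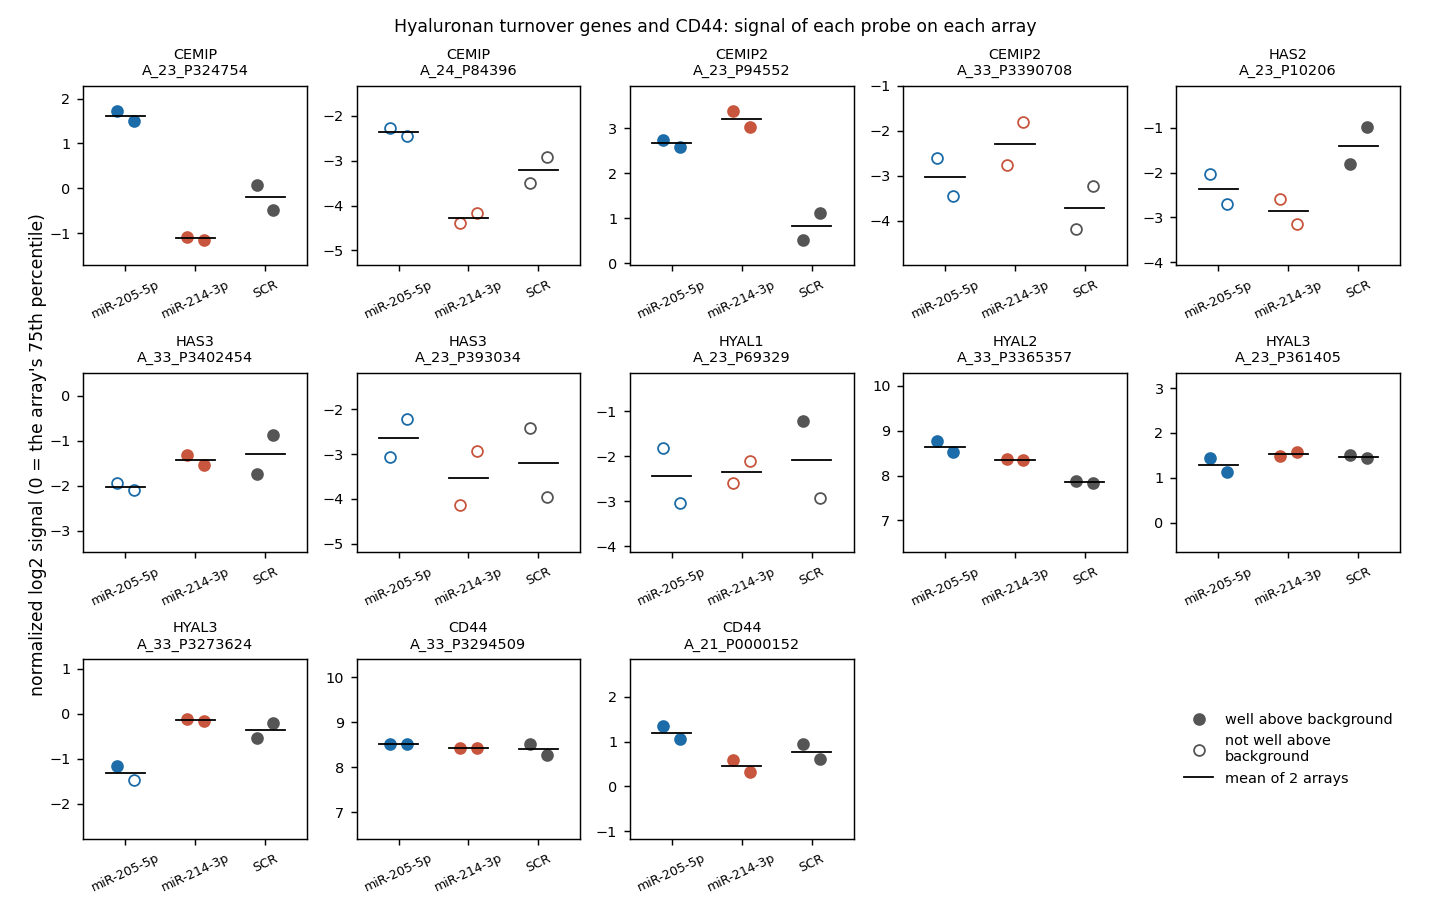
Normalized log2 signal (vertical axis, 0 is the array's 75th percentile) of all 13 probes of the 8 genes on the 6 arrays, by group (horizontal axis), with each point 1 array, filled where the probe was well above background, and lines the means of 2 arrays. CEMIP2 (probe A_23_P94552) was lowest on both SCR arrays, and CEMIP (probe A_23_P324754) was highest on both hsa-miR-205-5p arrays, in panels that each have their own axis.

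HAS2, a synthase that makes long hyaluronan chains, has 1 probe, printed as 10 spots on each array. Its normalized log2 signal was −2.03 and −2.70 with hsa-miR-205-5p, −2.58 and −3.15 with hsa-miR-214-3p, and −1.82 and −0.98 in SCR. Both SCR arrays lay above all 4 precursor arrays, and the precursor groups overlapped. The probe was well above background on both SCR arrays and on none of the 4 precursor arrays, so it was kept through SCR alone, and no fold or test is given. The log2 mean was −2.37 ± 0.47 (SD, n = 2) with hsa-miR-205-5p, −2.87 ± 0.40 with hsa-miR-214-3p and −1.40 ± 0.59 in SCR. The measured difference of hsa-miR-205-5p from SCR was −0.97, or −1.39 without SCR replicate 1, −0.55 without SCR replicate 2 and −0.04 with normexp. That of hsa-miR-214-3p was −1.47, or −1.89, −1.05 and −0.14 in the same order. As the precursor arrays were not clear of background, these differences only describe the signals, and nothing is read from them. HAS2 overlaps the antisense gene HAS2-AS1, whose own probe was not well above background on any array. Whether the HAS2 probe takes up antisense RNA was not tested. As RNA came from whole cultures, fewer cells with a transcript and less of it per cell cannot be told apart for this or any gene below.

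HAS3, a synthase of shorter chains, has 2 probes, and A_23_P393034 was not well above background on any array. The other, A_33_P3402454, had a normalized log2 signal of −1.95 and −2.09 with hsa-miR-205-5p, −1.32 and −1.54 with hsa-miR-214-3p, and −1.73 and −0.87 in SCR. The hsa-miR-205-5p arrays were the lowest and were not well above background, and the SCR arrays spread across both hsa-miR-214-3p arrays. The log2 mean was −2.02 ± 0.10 (SD, n = 2) with hsa-miR-205-5p, −1.43 ± 0.15 with hsa-miR-214-3p and −1.30 ± 0.61 in SCR, and no fold or test is given against hsa-miR-205-5p. Its measured difference from SCR was −0.72, or −1.15 without SCR replicate 1, −0.29 without SCR replicate 2 and −0.01 with normexp. The difference of hsa-miR-214-3p from SCR was −0.13, or −0.56 without SCR replicate 1 and 0.30 without SCR replicate 2.

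CEMIP, a secreted protein needed for the breakdown of hyaluronan in several cell types, has 2 probes. Probe A_23_P324754 had a normalized log2 signal of 1.72 and 1.51 with hsa-miR-205-5p, −1.08 and −1.15 with hsa-miR-214-3p, and 0.08 and −0.48 in SCR, well above background on all 6 arrays. The groups did not overlap, with hsa-miR-205-5p (mean 1.61 ± 0.15, SD, n = 2) highest, SCR (mean −0.20 ± 0.40, SD, n = 2) between and hsa-miR-214-3p (mean −1.11 ± 0.05, SD, n = 2) lowest. CEMIP rose 3.52-fold with hsa-miR-205-5p against SCR, a log2 difference of 1.82 (95% interval 1.23 to 2.40, adjusted p = 0.0111, limma), higher on both arrays. In size it was number 108 from the top of 11974 genes, and of the 501 genes called higher with a probe well above background on all arrays it was number 55.

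This call sat near the threshold. Without hsa-miR-205-5p replicate 1 the log2 difference of CEMIP was 1.71 with an adjusted p of 0.0516, and without replicate 2 it was 1.92 with an adjusted p of 0.0592. No filter on dim probes gave 0.0548, and the methods' t-test after Benjamini-Hochberg adjustment gave 0.202. Over all alternatives the difference kept its sign, from 1.01 to 2.10, and the adjusted p ran from 0.00547 to 0.202.

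Between the precursors, CEMIP was 6.61-fold higher with hsa-miR-205-5p than with hsa-miR-214-3p, a log2 difference of 2.73 (95% interval 2.14 to 3.31, adjusted p = 0.00387, limma). It was number 37 from the top of all genes there. Over all alternatives the difference was between 1.24, with normexp, and 2.83. Without hsa-miR-214-3p replicate 2 the adjusted p was 0.05 and the call was lost, at the upper end of a range from 0.00139 over all alternatives. Against SCR, hsa-miR-214-3p differed by −0.91 in CEMIP, which is a description, and this value was −0.63 without SCR replicate 1 and −1.19, past the thresholds, without SCR replicate 2, and −0.22 with normexp. The second probe, A_24_P84396, was not well above background on any array and gives no fold.

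CEMIP2 is a membrane protein related to CEMIP that has been described as a cell surface hyaluronidase. It is the gene that was selected on its value, so its levels are described without a p-value. Counts of genes past the thresholds include it, and nothing is read from its part in them. Probe A_23_P94552 had a normalized log2 signal of 2.75 and 2.58 with hsa-miR-205-5p, 3.39 and 3.04 with hsa-miR-214-3p, and 0.51 and 1.12 in SCR. All arrays were well above background, and the groups did not overlap. hsa-miR-214-3p (mean 3.22 ± 0.24, SD, n = 2) lay highest, hsa-miR-205-5p (mean 2.66 ± 0.12, SD, n = 2) next and SCR (mean 0.81 ± 0.43, SD, n = 2) lowest.

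The value that chose CEMIP2 is its log2 difference of 2.40 between hsa-miR-214-3p and SCR, 5.29-fold. It was number 5 from the top of 11974 genes, a rank that restates its choice. The SCR arrays moved it most among the arrays, to 2.10 without SCR replicate 1 and 2.71 without SCR replicate 2. hsa-miR-205-5p differed from the same SCR arrays by 1.85, 3.61-fold, number 99 from the top, and by 1.55 or 2.15 without SCR replicate 1 or 2. The precursors were compared with the same SCR arrays, so the values are not independent of each other. Between the precursors hsa-miR-205-5p differed by −0.55 from hsa-miR-214-3p, whose signal also entered the choice of the gene. The other probe, A_33_P3390708, was not well above background on any array.

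The 5 genes whose signal over the 6 arrays was most like that of CEMIP2 were IL7R, PLEKHO1, PTBP3, FSTL1 and RASL10A. Their Pearson r was between 0.976 and 0.988 over 6 arrays, which are 3 groups of 2 and not independent points. They come from 3077 genes well above background on all arrays with an SD of at least 0.5, and 65 of these genes had an r of at least 0.9. IL7R, the interleukin 7 receptor chain, had a normalized log2 signal of 3.31 and 3.27 with hsa-miR-205-5p, 3.55 and 3.64 with hsa-miR-214-3p, and 2.03 and 2.26 in SCR. FSTL1, a secreted glycoprotein, had 7.17 and 7.22, 8.01 and 8.10, and 4.88 and 5.09 in the same order. In all 5 genes, as in CEMIP2, both SCR arrays were lowest and both hsa-miR-214-3p arrays highest, an order that restates their choice by likeness.

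**Figure D2:**
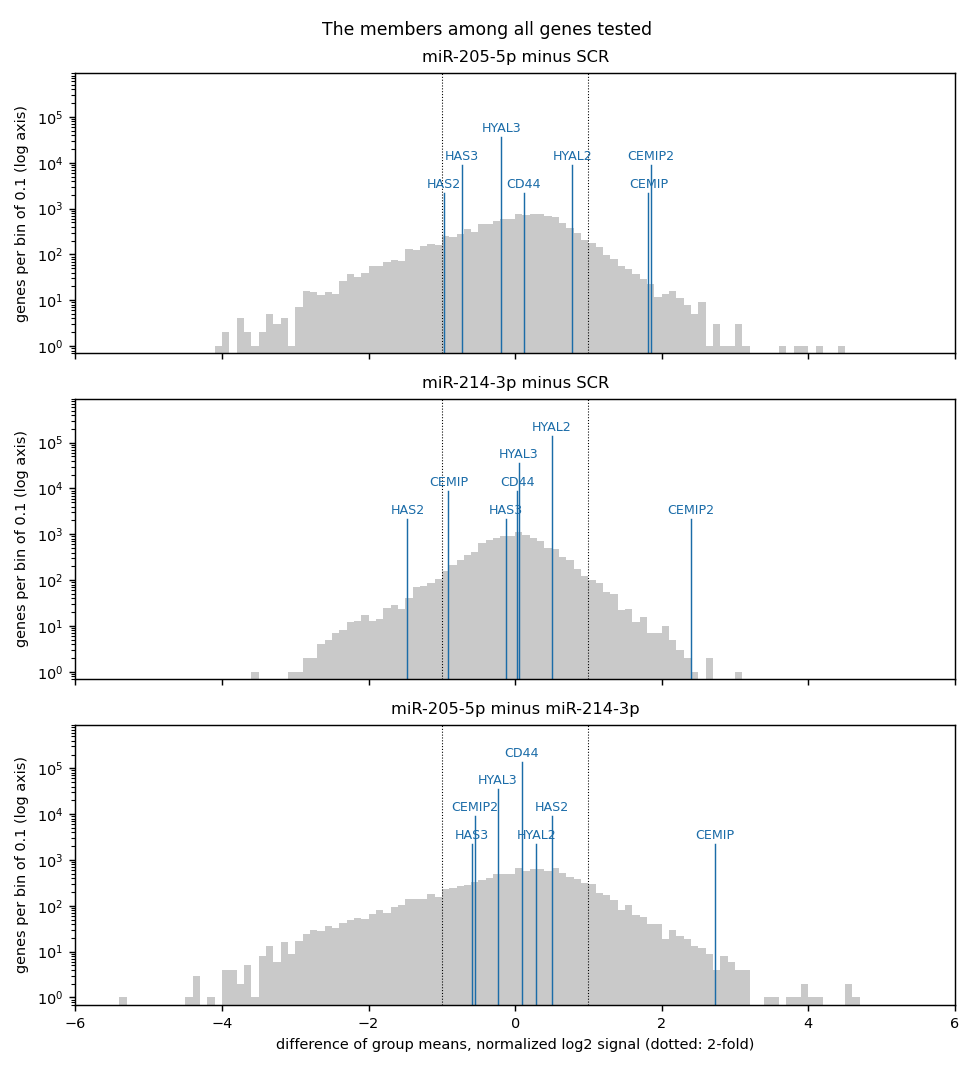
Differences between group means in normalized log2 signal (horizontal axis) for the 11974 genes tested, as counts in bins of 0.1 on a log axis, with the 7 members that have a kept probe marked by lines, 1 panel for each comparison and dotted lines at 2-fold. CEMIP2 lies at 2.40 in the panel for hsa-miR-214-3p against SCR, and CEMIP at 2.73 in the panel for hsa-miR-205-5p against hsa-miR-214-3p, while HAS2 and HAS3, which were not well above background in some groups, are drawn at their measured difference.

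HYAL1, HYAL2 and HYAL3 lie near each other on chromosome 3 and encode related hyaluronidases. HYAL1, a lysosomal enzyme, has 1 probe, which was well above background on SCR replicate 1 alone. It was not kept, and its log2 signals ran together across the groups, with a mean of −2.43 under hsa-miR-205-5p, −2.35 under hsa-miR-214-3p and −2.08 in SCR.

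HYAL2, an enzyme anchored at the cell surface, has 1 probe. Its normalized log2 signal was 8.76 and 8.52 with hsa-miR-205-5p, 8.36 and 8.35 with hsa-miR-214-3p, and 7.89 and 7.83 in SCR. The groups did not overlap, with SCR lowest and hsa-miR-205-5p highest. The log2 difference between hsa-miR-205-5p and SCR was 0.78 (95% interval 0.37 to 1.19, adjusted p = 0.0305, limma), which passed the p threshold and, at 1.72-fold, fell short of the fold threshold. Quantile normalization gave 0.50 (adjusted p = 0.0819) and scaling to the median gave 0.39 (adjusted p = 0.254), of a range from 0.0103 to 0.254. For hsa-miR-214-3p against SCR the difference was 0.50, or 0.29 with normexp and 0.33 after scaling to the median, which is a description. Between the precursors it was 0.29 (95% interval −0.12 to 0.70, adjusted p = 0.221), which did not pass, and quantile normalization turned its sign (−0.01).

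HYAL3 has 2 kept probes, which put the group means in the same order but disagreed in the size of the differences and in the calls. The probe that stands for the gene, A_23_P361405, had a normalized log2 signal of 1.45 and 1.12 with hsa-miR-205-5p, 1.48 and 1.57 with hsa-miR-214-3p, and 1.51 and 1.44 in SCR. The SCR arrays overlapped with both other groups, and hsa-miR-205-5p replicate 2 was the lowest array. The difference between hsa-miR-205-5p and SCR was −0.19 (95% interval −0.64 to 0.26, adjusted p = 0.472, limma), that between the precursors −0.24 (adjusted p = 0.341; over all alternatives −0.71 to −0.07, adjusted p from 0.0332 to 0.827), and that between hsa-miR-214-3p and SCR 0.05, or −0.12 after scaling to the median.

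The dimmer HYAL3 probe, A_33_P3273624, had −1.16 and −1.47 with hsa-miR-205-5p, −0.11 and −0.16 with hsa-miR-214-3p, and −0.53 and −0.21 in SCR. It was lowest on both hsa-miR-205-5p arrays, of which only replicate 1 was well above background, and the groups did not overlap. Its difference from SCR with hsa-miR-205-5p was −0.94 (95% interval −1.44 to −0.44, adjusted p = 0.0317, limma), short of 2-fold, and scaling to the median took it past both thresholds, at −1.33 (adjusted p = 0.0172; range 0.0172 to 0.316). So did leaving out SCR replicate 1, at −1.10 (adjusted p = 0.0208). Between the precursors the difference was −1.18, past 2-fold, with an adjusted p of 0.0123, so that this probe was called, in the downward direction. The call is uncertain, since hsa-miR-205-5p replicate 2 was not well above background. Normexp background correction brought it to −0.23 (adjusted p = 0.214). The call was also lost without hsa-miR-205-5p replicate 2 (−1.02, adjusted p = 0.0632), hsa-miR-214-3p replicate 1 (−1.15, adjusted p = 0.0893) or hsa-miR-214-3p replicate 2 (−1.20, adjusted p = 0.0897), in a range of 0.00908 to 0.214. HYAL3 overlaps the gene NAA80, so both HYAL3 probes are uncertain as to which transcript they measured.

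NAA80, an acetyltransferase of actin, had a difference of 0.85 from SCR with hsa-miR-205-5p (adjusted p = 0.0249, short of 2-fold) and of −0.68 with hsa-miR-214-3p (adjusted p = 0.0932). Between the precursors it was 2.89-fold higher with hsa-miR-205-5p, a log2 difference of 1.53 (adjusted p = 0.0047). That call was lost with normexp (0.88) and without hsa-miR-214-3p replicate 1 (1.45, adjusted p = 0.0512) or replicate 2 (1.60, adjusted p = 0.0536), in a range from 0.00208 to 0.0536. The list of 13 neighbours of the HYAL genes had 9 genes tested. None was called with hsa-miR-205-5p against SCR in limma, where 2 passed the p threshold short of 2-fold. At unadjusted p 0 were called in limma or in the methods' t-test, where limma had 685 of all 11974 genes higher and 1201 lower. With hsa-miR-214-3p, RASSF1, a scaffold protein of the Hippo pathway, rose by a log2 difference of 1.43 (adjusted p = 0.0305) and IFRD2 fell by 1.20 (adjusted p = 0.0448). The RASSF1 call was lost under 9 of 21 alternatives, with differences from 1.16 to 1.48, and the IFRD2 call under 10. Scaling to the median ended the IFRD2 call, at −1.36 with an adjusted p of 0.0556, in a range from 0.0109 to 0.332.

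**Figure D3:**
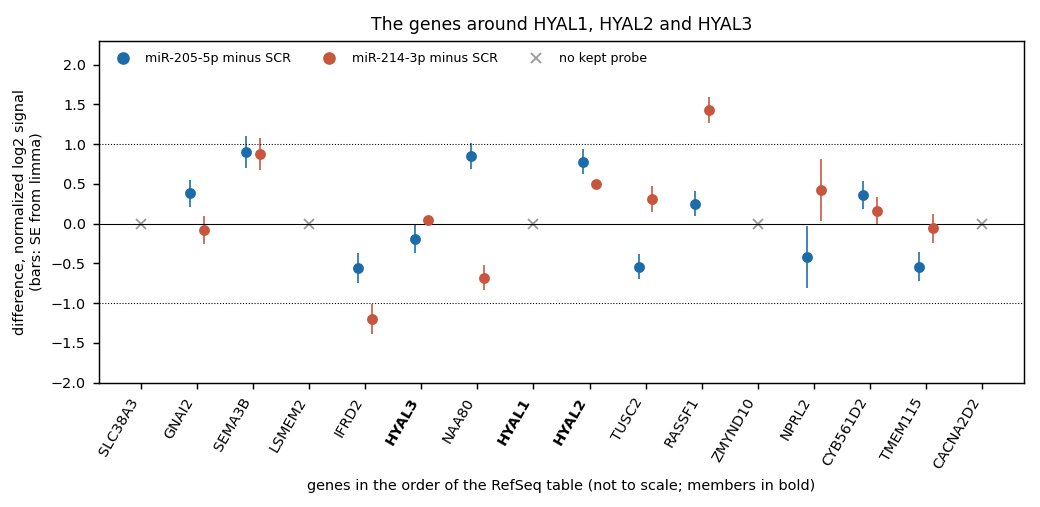
Differences from SCR in normalized log2 signal (vertical axis) of HYAL1, HYAL2, HYAL3 and their 13 listed neighbours, in the order of the RefSeq table and not to scale (horizontal axis), where points are differences of means of 2 arrays, bars are standard errors from limma, left off for members with hsa-miR-214-3p, and crosses mark genes without a kept probe. HYAL2 lies above 0 with both precursors, at 0.78 and 0.50, while IFRD2 lies below 0 and NAA80 changes sign between them.

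CD44, the hyaluronan receptor, has 2 kept probes that stand for different RefSeq transcripts. The probe that stands for the gene, A_33_P3294509, had a normalized log2 signal of 8.52 and 8.51 with hsa-miR-205-5p, 8.43 and 8.42 with hsa-miR-214-3p, and 8.51 and 8.28 in SCR. Both hsa-miR-205-5p arrays lay above both hsa-miR-214-3p arrays, the SCR arrays lay on either side of the hsa-miR-214-3p arrays, and SCR replicate 2 was the lowest array. The difference between hsa-miR-205-5p and SCR was 0.12 (95% interval −0.28 to 0.53, adjusted p = 0.613, limma), and that between the precursors was 0.09 (95% interval −0.31 to 0.50, adjusted p = 0.678). Both intervals lie within 2-fold. The signs depended on the scaling, since scaling to the median gave −0.27 for hsa-miR-205-5p against SCR and −0.13 between the precursors, and quantile normalization gave −0.13 and −0.20. The mean of both CD44 probes gave 0.27 and 0.42, and over all alternatives the adjusted p between the precursors ran from 0.0385 to 0.939. With hsa-miR-214-3p against SCR the difference was 0.03, or −0.14 after scaling to the median.

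The dimmer CD44 probe, A_21_P0000152, had 1.34 and 1.06 with hsa-miR-205-5p, 0.59 and 0.32 with hsa-miR-214-3p, and 0.94 and 0.61 in SCR. hsa-miR-205-5p lay highest and hsa-miR-214-3p lowest, with no overlap between groups. The difference from SCR was 0.42 with hsa-miR-205-5p (95% interval −0.11 to 0.96, adjusted p = 0.206, limma) and −0.32 with hsa-miR-214-3p. Between the precursors it was 0.74 (95% interval 0.21 to 1.28, adjusted p = 0.0474), short of 2-fold. Scaling to the median gave 0.52 there (adjusted p = 0.191) and normexp 0.36 (adjusted p = 0.0749), which did not pass. With hsa-miR-205-5p against SCR, scaling to the median gave 0.03 and normexp 0.20.

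The genes most like CD44 over the 6 arrays were TTL, LRR1, SMPD4, PRAC2 and MED14, with a Pearson r between 0.983 and 0.997, out of 3078 genes compared, of which 85 had an r of at least 0.9. TTL, a tubulin tyrosine ligase, had a normalized log2 signal of 7.63 and 7.41 with hsa-miR-205-5p, 6.59 and 6.54 with hsa-miR-214-3p, and 7.36 and 5.38 in SCR. In all 5 genes, as in CD44, SCR replicate 2 was the lowest array, which restates their choice by likeness. The compared genes had an SD of at least 0.5, which CD44, between 8.28 and 8.52, does not reach.

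Other genes were taken from 4 lists of the pathway and the list of chromosomal neighbours above, 5 lists with 74 genes, of which 73 are on the array and 49 were tested. With hsa-miR-205-5p against SCR, 5 rose and 4 fell, beside the 4.79% and 7.98% of all genes. The 5 include MMP9, which passed the filter through hsa-miR-205-5p alone and on whose call no weight is put. The median difference of the 49 genes was 0.30 against 0.08 over all genes. With hsa-miR-214-3p, 3 rose and 1 fell, beside 1.09% and 2.02%, with medians of 0.29 and −0.01, and 2 of these 4, RASSF1 and IFRD2, are neighbours of the HYAL genes and not genes of the pathway. The calls depended on single arrays. Without hsa-miR-205-5p replicate 2, 0 of the 49 genes, and 0 of all 11974, were called with hsa-miR-205-5p in limma. With hsa-miR-214-3p, the calls were lost on leaving out any array except SCR replicate 2. Leaving out SCR replicate 2 raised the number of calls, among the 49 genes and over all genes tested alike. When hsa-miR-205-5p was compared with hsa-miR-214-3p, 6 were higher and 8 lower, beside 9.19% and 11.3%, and without hsa-miR-214-3p replicate 2 limma called 0 of all 11974 genes in this comparison.

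Of the 9 tested genes that supply hyaluronan's sugar precursors, NAGK, the kinase that recycles N-acetylglucosamine, fell with hsa-miR-205-5p. Its normalized log2 signal was 2.20 and 2.26 with hsa-miR-205-5p, 4.88 and 4.89 with hsa-miR-214-3p, and 4.20 and 4.43 in SCR. Both hsa-miR-205-5p arrays lay far below the other 4, by a log2 difference of −2.09 from SCR (adjusted p = 0.00798, limma). Without hsa-miR-205-5p replicate 2, NAGK differed by −2.12 with an adjusted p of 0.056. In the other direction, UGP2, GFPT1 and PGM3 differed by 0.72, 0.84 and 0.92, passing the p threshold short of 2-fold. They are named after their values were seen. The dimmer kept PGM3 probe differed by 0.35 (adjusted p = 0.494, limma), which did not pass. That of GFPT1 was kept through SCR alone, and nothing is read from its difference of −0.36. UGDH and UAP1 differed by −0.64 and −0.73, which did not pass. Of the 9 genes, 6 lay above 0, and the list's median was 0.50. The synthase gene HAS1 and HAS2-AS1 had no kept probe. None of the 9 (0) was called under hsa-miR-214-3p in limma. At unadjusted p 1 of the 9 passed in limma, beside 319 of all 11974 genes higher and 495 lower. In the methods' t-test 0 did so.

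Of 5 other breakdown genes tested, HEXA, a subunit of lysosomal hexosaminidase, fell with hsa-miR-205-5p, from 3.78 and 3.89 in SCR to 2.15 and 1.67, and was 4.20 and 4.25 with hsa-miR-214-3p. The hsa-miR-205-5p arrays were the lowest, with a log2 difference of −1.93 from SCR (adjusted p = 0.00885, limma).

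Of 11 other receptors and binding proteins tested, LAYN, which encodes the hyaluronan receptor layilin, rose with both precursors. Its normalized log2 signal was 4.86 and 5.14 with hsa-miR-205-5p, 5.06 and 5.07 with hsa-miR-214-3p, and 3.86 and 3.57 in SCR. Both SCR arrays lay below the other 4, and the differences from SCR were 1.29 (adjusted p = 0.0141) and 1.35 (adjusted p = 0.0374, limma). The LAYN call with hsa-miR-214-3p was lost under 9 of 21 alternatives, with differences from 1.03 to 1.49 over all of them. The LAYN call with hsa-miR-205-5p was also lost without either hsa-miR-214-3p array (1.29, adjusted p = 0.0543; range 0.00491 to 0.196), and normexp (0.93) and scaling to the median (0.90) took it below 2-fold. The innate immune receptor TLR2 rose with hsa-miR-205-5p, by 1.78 (adjusted p = 0.00798), and TLR4 with hsa-miR-214-3p, by 1.38 (adjusted p = 0.0371). The TLR4 call was lost under 11 of 21 alternatives, among them normexp (0.98) and scaling to the median (1.22), with differences from 0.98 to 1.42 over all of them. The difference between precursors was 1.35 for TLR2 (adjusted p = 0.00556) and −0.84 for TLR4 (adjusted p = 0.0239, short of 2-fold). ITIH4, of the family whose heavy chains bind hyaluronan, and HABP4, an intracellular hyaluronan-binding protein, fell with hsa-miR-205-5p by 1.69 and 1.82 on the log2 scale. With normexp ITIH4 differed by −0.88 and lost its call, and HABP4 differed by −1.70. HMMR, a receptor also known for its part in the mitotic spindle, had a difference of −0.77 (adjusted p = 0.0414) short of 2-fold, and PTX3, a pentraxin of hyaluronan-rich matrix, one of 0.72 (adjusted p = 0.0292), also short of 2-fold.

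Of 15 tested partners, sheddases and splicing regulators of CD44, 3 were called higher with hsa-miR-205-5p, or 2 without MMP9, beside 4.79% of all genes. MMP9, a protease that docks on CD44, had a normalized log2 signal of 0.22 and 0.25 with hsa-miR-205-5p, −1.84 and −1.71 with hsa-miR-214-3p, and −1.99 and −2.22 in SCR. Both hsa-miR-205-5p arrays stood above the other 4, and the probe was well above background on only 1 array each of hsa-miR-214-3p and SCR. MMP9 passed the filter through hsa-miR-205-5p alone, so no weight is put on its call, and its log2 difference from SCR, 2.34, was 0.75 with normexp. ESRP2, a splicing regulator that acts on CD44 transcripts in epithelial cells, rose by 2.10 (adjusted p = 0.00798). NF2, which encodes the CD44 partner merlin, rose by 1.32 with an adjusted p of 0.0498, and lost its call on leaving out any of the 6 arrays except SCR replicate 1 (over all alternatives, differences from 0.57 to 1.80 and adjusted p from 0.0101 to 0.329). With hsa-miR-214-3p, NF2 differed from SCR by 1.38 (adjusted p = 0.098) and ESRP2 by 1.11 (adjusted p = 0.0514), which did not pass. ESRP2 was called there with quantile normalization and with the 75th percentile taken over detected probes. Between the precursors NF2 differed by −0.06 and ESRP2 by 0.99 (adjusted p = 0.0166, limma), short of 2-fold. The linker genes EZR, RDX and MSN had differences of 0.31, 0.21 and 0.30 with hsa-miR-205-5p that did not pass. The dimmer kept RDX probe differed by 1.06 (adjusted p = 0.108), and by 1.41 with hsa-miR-214-3p (adjusted p = 0.115, limma), which did not pass either. With hsa-miR-214-3p, 0 of the 15 were called in limma, while 3 passed upward at unadjusted p, as did 319 of all 11974 genes, and 1 in the methods' t-test.

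**Figure D4:**
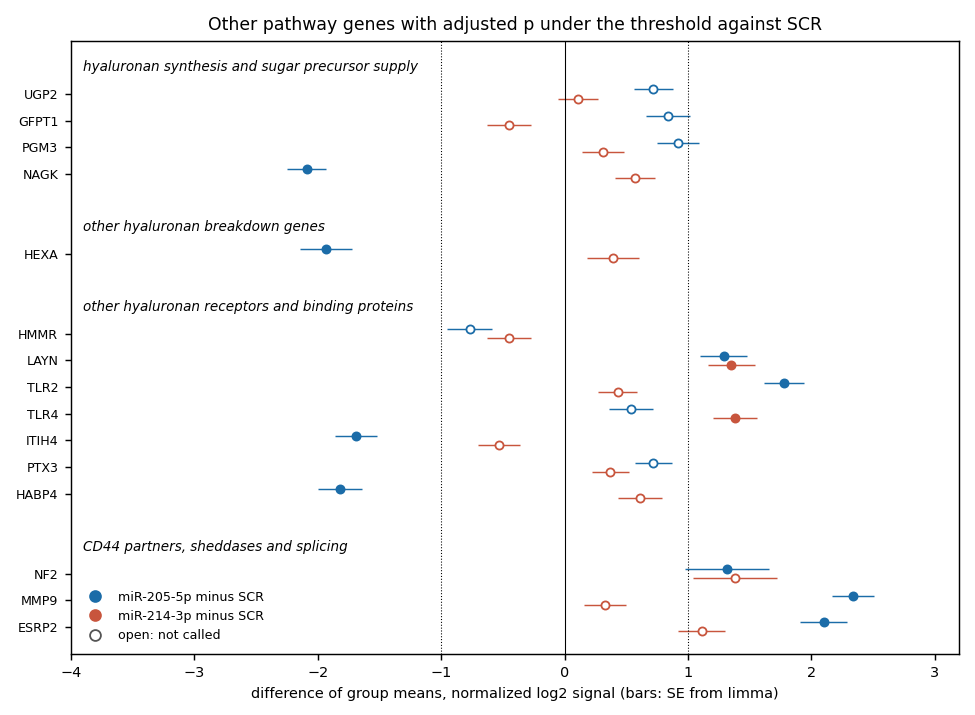
Differences from SCR in normalized log2 signal (horizontal axis) for the genes of 4 pathway lists with an adjusted p under 0.05 against SCR with at least 1 precursor (vertical axis), as differences of means of 2 arrays with standard errors from limma, filled where called, and dotted lines at 2-fold. NAGK, HEXA, ITIH4 and HABP4 lie below −1 with hsa-miR-205-5p, and LAYN lies above 1 with both precursors.

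The label of the cells was set against marker genes. All 8 markers of mesenchymal-like MDA-MB-231 cells were well above background on all 6 arrays, and KRT18 had the highest mean of their probes, although LGALS1 was higher on 3 of the 6. KRT8 and KRT18 also mark epithelial cells. The summed signal of all 8, in multiples of the array's 75th percentile, was 2270 and 2260 with hsa-miR-205-5p, 2290 and 2470 with hsa-miR-214-3p, and 2190 and 2270 in SCR. That sum hides S100A4 and PLAUR, which differed by −0.90 (adjusted p = 0.0299) and −0.83 (adjusted p = 0.0258, limma) with hsa-miR-205-5p from SCR, short of 2-fold, and KRT8, which differed by 0.85 (adjusted p = 0.0684). Of 6 luminal or epithelial markers, 3 had a kept probe (GATA3, CDH1 and EPCAM), while the defining luminal markers ESR1, PGR and FOXA1 had none. Their sum was 12.7 and 9.72 with hsa-miR-205-5p, against 3.07 and 3.32 with hsa-miR-214-3p and 3.09 and 3.24 in SCR, with EPCAM the brightest. GATA3 differed by 0.31 with hsa-miR-205-5p from SCR (adjusted p = 0.291, limma), which did not pass. CDH1 and EPCAM rose with hsa-miR-205-5p, by 1.97 (adjusted p = 0.00798) and 2.40 (adjusted p = 0.00885, limma). Without hsa-miR-205-5p replicate 2 the adjusted p was 0.056 for both. Normexp took CDH1 to 0.76, where its call was lost, and EPCAM to 1.59, and the adjusted p over all alternatives ran up to 0.161 for CDH1 and 0.184 for EPCAM. This moved with the rise of CEMIP and ESRP2 on the same arrays, and its part in them was not tested.

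Of 5 fibroblast markers, none had a kept probe. Of 5 leukocyte markers, CD68 alone was kept, with sums of 3.72 and 4.74, 9.79 and 9.52, and 7.04 and 10.8 in the same order of groups. CD68 differed under hsa-miR-205-5p from SCR by −1.05, a downward call (adjusted p = 0.045, limma) that was lost on leaving out any array except SCR replicate 1 (range 0.0164 to 0.31), while PTPRC and CD3E had no kept probe and LYZ no matched probe. Of 3 endothelial markers, PECAM1 alone was kept, with sums of 0.236 and 0.179, 0.434 and 0.373, and 0.753 and 0.72, and it was close to background on the hsa-miR-205-5p arrays, so no fold is given.

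Scaling changes the balance of all genes, and so the zero that each difference is read against. With scaling to the median, the median difference of all genes moved from 0.08 to −0.31 with hsa-miR-205-5p against SCR and from −0.01 to −0.18 with hsa-miR-214-3p against SCR. Calls then split into 211 higher and 1877 lower with hsa-miR-205-5p, against 573 and 956 in the setting used here, and into 44 higher and 277 lower with hsa-miR-214-3p, against 131 and 242. Between the precursors the median moved from 0.12 to −0.10, and the split was 636 higher and 1805 lower, against 1100 and 1353. With normexp the splits from SCR were 133 and 619, and 37 and 209. Under the scalings tried, CEMIP and CEMIP2 stayed above SCR with hsa-miR-205-5p, at 1.43 and 1.46 after scaling to the median.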

How the data were processed

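The authors scanned 6 one-colour arrays, and the deposited Feature Extraction 11.0.1.1 output gives each spot's processed signal, an intensity with background subtracted and spatial trends removed, not normalized between arrays. A log2 table from the authors was also deposited, made with GeneSpring per the methods. Its columns have identical sorted values (median 3.49) and correlate with log2 of the processed signal at 0.99683 to 0.99974, so it is quantile normalized, with steps not given in the sources used here.

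Outlier spots (245 to 463 per array) and control spots were left out, spots of a probe averaged, and each array's 75th percentile subtracted from log2 signal. Kept probes were those the scanner marked as clear of background on both arrays of 1 group or more (18468 of 50599, 83.3% of them matched to a symbol in the RefSeq table of GRCh38.p14). The array design names hg19, so that table gave names and gene order only. A gene is its kept probe with the highest mean. R 4.3.3, limma 3.58.1 (lmFit and eBayes, all 6 arrays, 3 residual and 2.48 prior degrees of freedom), data.table (1.17.8) and matplotlib 3.10.9 were used, and the fit was tested on simulated data. Members and lists were chosen with earlier results of these data known. Named pathway genes are those called against SCR, up to 10 per comparison, and genes that show what a list holds. The paper's general statement on independent experiments does not name the arrays, and nothing states for them that replicates were separate cultures, so p-values measure spread between these samples, which may be technical. Alternatives were normexp (offset 50, on the median signal), other scalings, filters, fits and tests, the deposited table, and leaving out each array.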

Additional observations from a re-analysis of the deposited data

Results flagged for a closer look

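The precursors differed from each other by the direct test in CEMIP, where hsa-miR-205-5p was higher by a log2 difference of 2.73, and both hsa-miR-205-5p arrays lay above SCR and both hsa-miR-214-3p arrays below it. With normexp it was 1.24. They also differed in the dimmer HYAL3 probe, by −1.18, which is uncertain since hsa-miR-205-5p replicate 2 was not well above background, and which was −0.23 with normexp and lost its call without hsa-miR-205-5p replicate 2 or without either hsa-miR-214-3p array, while the other HYAL3 probe differed by −0.24.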

How the results depend on the processing

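No called value of the 8 genes changed sign under any alternative run for it (19 to 21 for each). CEMIP2 lay between 1.78 (normexp) and 2.71 above SCR with hsa-miR-214-3p. Genes past the thresholds, hsa-miR-205-5p against SCR: of the 2 member genes, 0 were left without a filter on dim probes and 0 with the methods' t-test after Benjamini-Hochberg adjustment. Of the 9 genes called in the pathway and neighbour lists (listed genes, MMP9 among them), 5 were left with normexp, 0 with that t-test, and 16 passed with no limit on fold change. Against the 1 member and 4 listed genes with hsa-miR-214-3p, scaling to the median gave 2 listed genes and no filter 0 and 0. The fit on only the 4 arrays compared gave 0 and 0, that t-test 0 and 0, and unadjusted limma p 2 and 9. At unadjusted p limma had 319 of all 11974 genes higher and 495 lower in that comparison. No filter means more probes to adjust over, and 4 arrays mean fewer degrees of freedom. For the other changes the cause was not tested.

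Leaving out 1 array at a time gave 0 to 3 member (the added gene, HAS3, is near background) and 0 to 12 listed genes for hsa-miR-205-5p against SCR, 0 to 2 and 0 to 9 for hsa-miR-214-3p against SCR, and 0 to 1 member for the precursors compared directly. CEMIP2 ran from 2.10 to 2.71 in hsa-miR-214-3p minus SCR. These fits take a lone array to have the spread of the other groups.

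With the replicate number as a replicate block, 0 member and 0 listed genes passed for hsa-miR-214-3p against SCR, while 2 and 8 passed for hsa-miR-205-5p against SCR. Same-numbered arrays did not deviate together (correlations 0.109, 0.00781 and −0.0515), so the numbers do not pair the arrays. A slide block could not be fitted with 1 slide. HAS2, HAS3 and HYAL1 are limited by signal near background.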
